A study of Mus musculus with 12 samples.

Results

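The FGF receptor and ERK feedback genes described here are 10 mouse genes taken by symbol from the 55385 genes of a table of transcript levels in sorted spermatogonia. They are the receptors *Fgfr1*, *Fgfr2* and *Fgfr3*, the signalling brakes *Spry1*, *Spry2*, *Spry4* and *Spred1*, the phosphatases *Dusp4* and *Dusp6*, and the transcription factor *Etv4*. RNA-seq was performed on 12 libraries in 6 groups of 2. WT C57BL/6 mice of 2 to 3 mo gave undifferentiated spermatogonia (A_undiff, sorted as E-Cadherin+ CD9high KIT-) and early differentiating spermatogonia (A_diff, sorted as E-Cadherin+ CD9medium KIT+), with 100000 to 150000 pooled cells per library and a stranded mRNA kit (TruSeq). A_undiff also came from C57BL/6 X FVB/NJ mice that lacked *Ring1*. The label PRC1cKO stood for Ring1-/-; Rnf2 F/-; Ddx4-Cre, in which the Cre is driven by a germ cell gene, and the label PRC1ctrl for Ring1-/-; Rnf2 F/+; Ddx4-Cre littermates, so the controls lacked *Ring1* as well. RING1 and RNF2 are the catalytic subunits of PRC1, the complex that ubiquitinates H2A. These mice were sampled untreated at 2 mo, with 7000 cells per library and a low-input method (Smart-Seq2), or after about 30 daily injections of Win18446 that began at 1 mo, with the stranded kit. Win18446 inhibits ALDH1A2, an enzyme that makes retinoic acid, and was given to hold spermatogonia back from differentiation. The comparisons therefore ask how these genes change when spermatogonia differentiate, and whether they differ between the genotype labels with and without the inhibitor.

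FGF ligands bind receptor tyrosine kinases at the cell surface, which recruit adaptors, load RAS with GTP and switch on the RAF, MEK and ERK kinases. ERK in turn raises the transcription of its own brakes. Sprouty and Spred proteins act between the receptor and RAF, DUSP6 removes phosphate from ERK in the cytoplasm and DUSP4 in the nucleus, and ETS factors such as ETV4 and ETV5 carry the signal to target genes. In the testis, FGF2 and GDNF are growth factors for undifferentiated spermatogonia, and transcripts of the feedback genes are widely used as a readout of ERK activity, which was not measured in these samples.

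Promoter windows of 300 bases, from 250 before to 50 after the start site, were found for 6 of the 10 genes in RefSeq (GRCm38.p6). They are shown for *Dusp6*, the gene of the set with the largest difference between the WT populations, for *Fgfr3*, the member that was higher in A_diff, and for *Spred1*, whose level barely differed. The windows are chr10:99262981-99263280 (plus strand) for *Dusp6*, chr5:33721474-33721773 (plus strand) for *Fgfr3*, the nearer to the annotated start of its 2 windows, and chr2:117120821-117121120 (plus strand) for *Spred1*. Capitals mark CGGAAG, the core letters of an ETS motif, or their reverse complement.
Dusp6: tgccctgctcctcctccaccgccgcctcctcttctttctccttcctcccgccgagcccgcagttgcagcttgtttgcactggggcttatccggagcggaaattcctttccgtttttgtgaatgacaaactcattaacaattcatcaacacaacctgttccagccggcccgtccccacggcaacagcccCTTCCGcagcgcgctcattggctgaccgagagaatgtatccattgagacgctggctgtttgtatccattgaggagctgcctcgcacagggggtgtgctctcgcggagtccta
Fgfr3: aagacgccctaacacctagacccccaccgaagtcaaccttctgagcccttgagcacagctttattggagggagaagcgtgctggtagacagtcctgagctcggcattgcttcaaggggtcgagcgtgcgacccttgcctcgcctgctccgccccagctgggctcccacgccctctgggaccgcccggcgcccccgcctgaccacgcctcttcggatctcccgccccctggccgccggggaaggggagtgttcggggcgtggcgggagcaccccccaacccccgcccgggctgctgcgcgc
Spred1: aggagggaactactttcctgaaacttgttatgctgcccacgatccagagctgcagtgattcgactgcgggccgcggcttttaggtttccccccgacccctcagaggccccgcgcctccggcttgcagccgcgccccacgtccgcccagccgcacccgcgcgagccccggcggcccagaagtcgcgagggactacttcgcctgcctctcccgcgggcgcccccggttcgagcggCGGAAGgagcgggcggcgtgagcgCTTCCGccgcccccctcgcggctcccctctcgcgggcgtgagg
The *Dusp6* window held these letters once and the *Spred1* window held them at 2 places, whereas both *Fgfr3* windows and those of *Fgfr2*, *Spry1* and *Spry2* held none. Of all 32851 windows in the table, 16.9% held them on either strand. The AP-1 letters TGANTCA (7.81% of all windows) and the CRE core TGACG (20.8%) were found on neither strand of the 6 genes' windows, and their letters do not overlap those in capitals. CG dinucleotides numbered 19 in the *Dusp6* window, 26 in the *Fgfr3* window shown, 30 in its other window (chr5:33722056-33722355) and 40 in the *Spred1* window, against a median of 7 over all windows. The letters are a description of sequence and not a map of binding.

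Coordinates are those of GRCm38, and all 10 genes are annotated as protein-coding. *Fgfr1* (ENSMUSG00000031565) lies on chromosome 8 from 25513654 to 25575718, *Fgfr2* (ENSMUSG00000030849) on chromosome 7 from 130162451 to 133123350 and *Fgfr3* (ENSMUSG00000054252) on chromosome 5 from 33721674 to 33737068. *Spry1* (ENSMUSG00000037211) lies on chromosome 3 from 37639947 to 37644598, *Spry2* (ENSMUSG00000022114) on chromosome 14 from 105891947 to 105896819, *Spry4* (ENSMUSG00000024427) on chromosome 18 from 38586247 to 38601415 and *Spred1* (ENSMUSG00000027351) on chromosome 2 from 117121374 to 117182279. *Dusp4* (ENSMUSG00000031530) lies on chromosome 8 from 34807297 to 34819894, *Dusp6* (ENSMUSG00000019960) on chromosome 10 from 99263231 to 99267489 and *Etv4* (ENSMUSG00000017724) on chromosome 11 from 101769742 to 101785371. Exons of another gene on the opposite strand cover 24.4% of the exonic bases of *Spry1*, 13.9% of those of *Fgfr3* and 1.66% of those of *Fgfr1*, and *Ctbp2* shares 3.04% of those of *Fgfr2* on the same strand. The low-input method does not mark strand, so reads of *Spry1* and *Fgfr3* cannot be told apart there from reads of their antisense partners.

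The values are TPM, the share of the transcripts of a library that a gene makes up, corrected for transcript length, so the number of reads behind a value is unknown. Between 12422 and 16599 genes per library had at least 1 TPM, and 19.8% to 39.2% of the TPM came from its 50 highest genes. Mitochondrial genes held 12.5% to 16.7% in the 4 low-input libraries and 4.28% to 6.69% in the other 8. The *Kit* and *Gfra1* levels followed the sort of the WT fractions, with a *Kit* log2 fold change of 5.01 and a *Gfra1* log2 fold change of -3.87 in A_diff. *Ring1* lay between 0.03 and 0.25 TPM in the 8 libraries of PRC1 mice and at 8.61 TPM or above in WT, but *Rnf2* was not lower under the label PRC1cKO (log2 fold change 0.74 at 2 mo and 0.30 after Win18446), and genotypes are therefore given as labels of the libraries. The study, citing earlier work, describes the H2A ubiquitin mark (H2AK119ub) as almost fully lost from germ cells of PRC1cKO mice. TPM of a gene does not measure this mark.

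**Figure D1:**
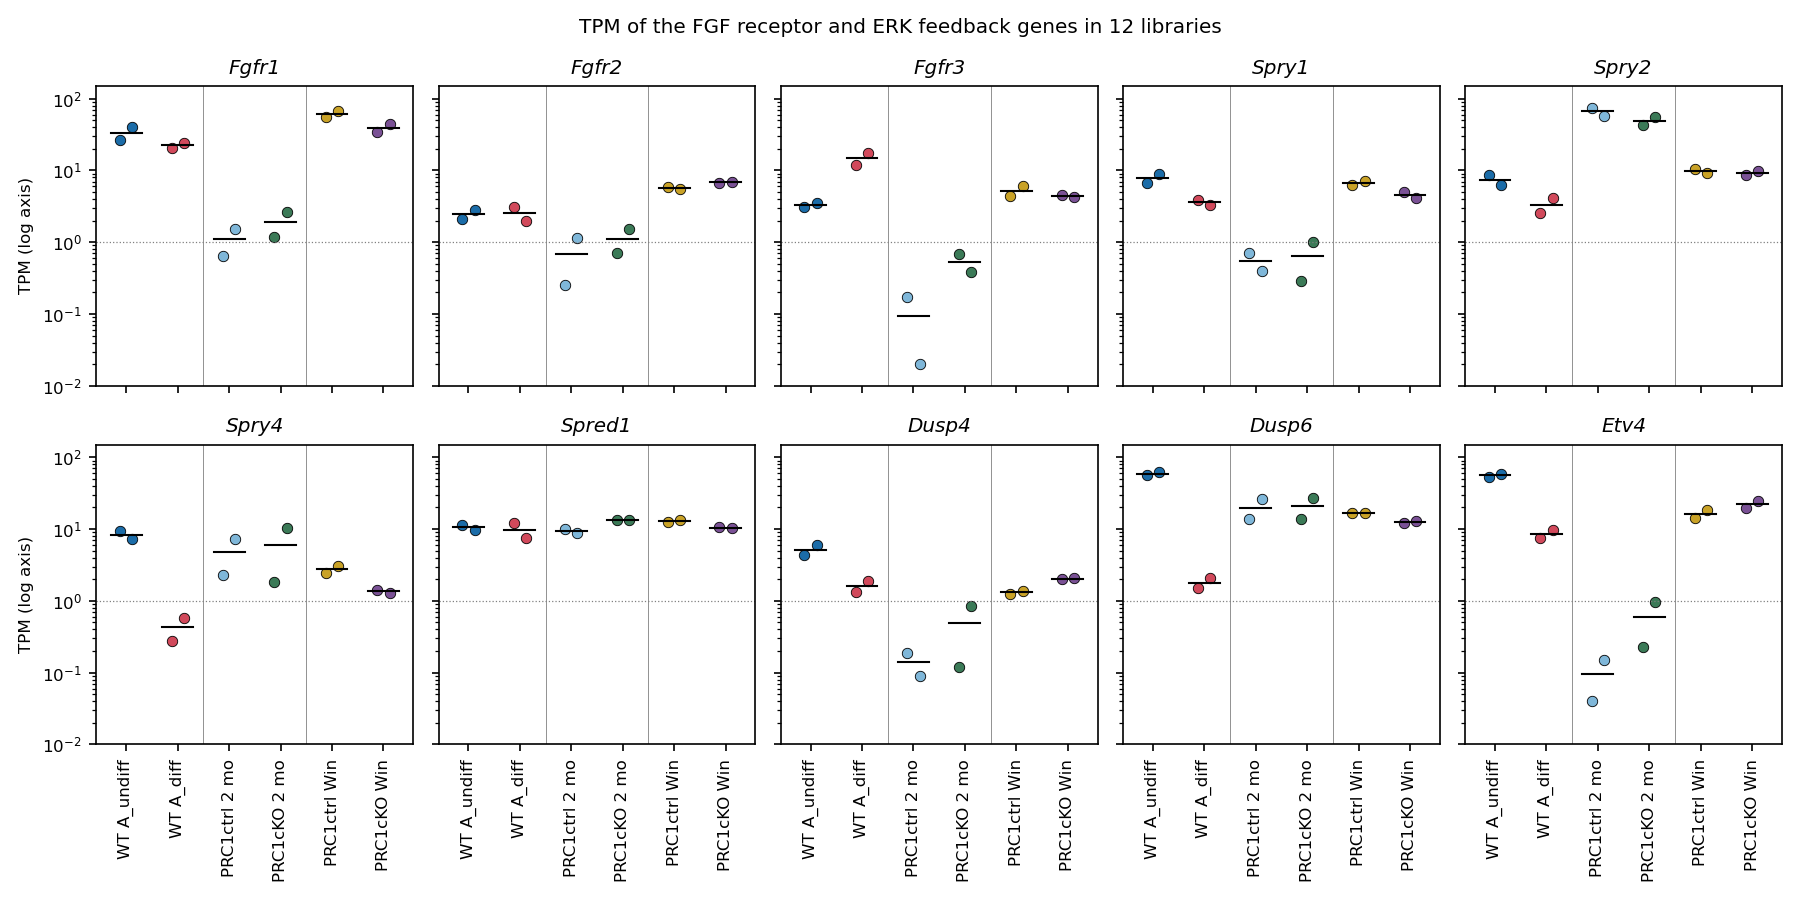
TPM (log axis) of the 10 genes in each of the 12 libraries, with 1 point per library, a bar at the mean of each group and a dotted line at 1 TPM. WT, 2 mo and Win18446 libraries are divided by vertical lines, and *Dusp6* falls from 56.2 and 61.9 TPM in WT A_undiff to 1.5 and 2.07 TPM in WT A_diff while *Fgfr3* rises.

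Between WT A_undiff and A_diff, *Spry4*, *Dusp4*, *Dusp6* and *Etv4* fell and *Fgfr3* rose. The other receptors and *Spred1* passed no threshold, and *Spry1* and *Spry2* were lower in A_diff by slightly less than the fold required. Genes were tested on log2(TPM + 1) with limma (two-sided, Benjamini-Hochberg adjustment over the 15470 genes with at least 1 TPM in at least 2 of the 4 libraries) and the call required a limma adjusted p below 0.05 with a log2 fold change beyond 1 in either direction. By this rule 4 of the 10 genes were lower and 1 was higher, where 9.24% of all genes tested were lower and 11.1% were higher. Lower genes made up 45.3% of all calls, and 60.1% when the TPM were scaled by median-of-ratios factors. The median log2 fold change of the 10 genes was -0.96, against 0.15 over all genes tested. The libraries of the groups did not overlap for 8 of the 10 genes, and for 72.1% of all genes tested. An exact permutation test of 2 libraries against 2 cannot give a p below 0.333, so these p-values rest on the spread that limma shares across genes.

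*Dusp6* changed most. It stood at 56.2 and 61.9 TPM in the A_undiff libraries and at 1.5 and 2.07 TPM in the A_diff libraries. Both A_undiff libraries lay far above both A_diff libraries, with means of 59.1 ± 3.99 and 1.79 ± 0.403 TPM (SD, n = 2 each), a 33.1-fold difference. Its log2 fold change of -4.44 (standard error, SE, 0.20, limma adjusted p = 0.000221) was the 13th largest in size of the 15470 genes tested. *Dusp4*, the nuclear phosphatase, stood much lower, at 4.30 and 5.95 TPM in A_undiff and at 1.31 and 1.90 TPM in A_diff. Its groups did not overlap, and its log2 fold change was -1.23 (SE 0.28, limma adjusted p = 0.0175). Without replicate 2 of A_undiff the log2 fold change of *Dusp4* was -1.03 and its limma adjusted p was 0.103, so this call rests on that library. Of the 5 calls it was the only one lost when a library was left out, apart from *Spry4*, which could not be tested without either A_undiff library.

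*Etv4*, the ETS factor, had 53.3 and 58.2 TPM in A_undiff and 7.55 and 9.74 TPM in A_diff. The A_undiff libraries were the higher ones throughout, by 6.45-fold between the means (55.8 ± 3.46 and 8.65 ± 1.55 TPM, SD, n = 2 each). The log2 fold change was -2.57 (SE 0.18, limma adjusted p = 0.000866). In all the alternative fits its log2 fold change stayed between -2.88 and -2.40. *Etv4* and *Dusp6* were thus of like level in A_undiff (55.8 and 59.1 TPM), while in A_diff the means were 8.65 TPM for *Etv4* and 1.79 TPM for *Dusp6*.

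Of the Sprouty and Spred brakes, *Spry4* differed most. It had 9.46 and 7.27 TPM in A_undiff and 0.28 and 0.58 TPM in A_diff. The groups were well apart and the log2 fold change was -2.71 (SE 0.28, limma adjusted p = 0.00171). Because the A_diff values lie under 1 TPM, the size depends on the pseudocount, and with 0.1 in place of 1 the log2 fold change was -4.05. *Spry1* had 6.73 and 9.0 TPM in A_undiff against 3.92 and 3.26 TPM in A_diff, a log2 fold change of -0.94 (SE 0.25, limma adjusted p = 0.027). *Spry2* had 8.66 and 6.24 TPM in A_undiff against 2.59 and 4.07 TPM in A_diff, a log2 fold change of -0.97 (SE 0.28, limma adjusted p = 0.0384). Neither group pair overlapped, and both genes were called lower when the TPM were scaled by median-of-ratios factors, with log2 fold changes of -1.09 and -1.11. *Spred1* showed no such difference, with 11.5 and 9.81 TPM in A_undiff, 11.96 and 7.49 TPM in A_diff, overlapping groups and a log2 fold change of -0.15 (95% confidence interval -0.77 to 0.48, limma adjusted p = 0.69).

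The receptors did not move together. *Fgfr3* had 3.05 and 3.55 TPM in A_undiff and 11.9 and 17.5 TPM in A_diff. Every A_diff library lay above every A_undiff library, with means of 14.7 ± 3.97 and 3.30 ± 0.354 TPM (SD, n = 2 each) and a log2 fold change of 1.85 (SE 0.25, limma adjusted p = 0.00373). *Fgfr1*, the most abundant receptor of the set, had 26.3 and 40.5 TPM in A_undiff and 20.8 and 24.3 TPM in A_diff. Its libraries did not overlap, but the A_undiff pair was spread, and the log2 fold change of -0.52 (95% confidence interval -1.08 to 0.04, limma adjusted p = 0.124) did not pass. *Fgfr2* was low in both populations, at 2.08 and 2.81 TPM in A_undiff and at 3.13 and 1.95 TPM in A_diff, with a log2 fold change of 0.03 (95% confidence interval -0.68 to 0.74, limma adjusted p = 0.953). Summed over the 3 receptors, the level was 31.5 to 46.9 TPM in A_undiff and 35.8 to 43.8 TPM in A_diff, so the sums overlapped while the share of *Fgfr3* in them grew.

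In bulk samples, fewer cells of a type and less RNA per cell cannot be told apart. Markers of Sertoli cells, the somatic cells that surround spermatogonia, also differed between the WT groups. The 10 markers summed to 105 to 113 TPM in A_undiff and to 37.2 to 38.5 TPM in A_diff, of which *Trf* made up 47.0 to 59.2 TPM in A_undiff and 2.82 to 4.30 TPM in A_diff. Of the 6 that were tested 2 were called lower, *Trf* and *Rhox5*. At an adjusted p under 0.05 alone 4 of the 6 were lower, with *Wt1* at 10.1 and 5.32 TPM and *Clu* at 29.3 and 19.2 TPM in the mean of A_undiff and A_diff. *Gata4* had 5.0 and 5.15 TPM in A_undiff and 4.94 and 3.34 TPM in A_diff. The markers *Sox9*, *Amh*, *Dhh* and *Fshr* lay at or under 1.18 TPM in the 4 libraries, and *Amh* was listed at 0 in replicate 1 of each group. The part of these cells in the member genes' differences was not tested. Markers of Leydig cells summed to 21.0 to 41.5 TPM in A_undiff and to 10.4 to 41.0 TPM in A_diff, and those of spermatids to 825 to 900.1 and 566 to 753 TPM.

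**Figure D2:**
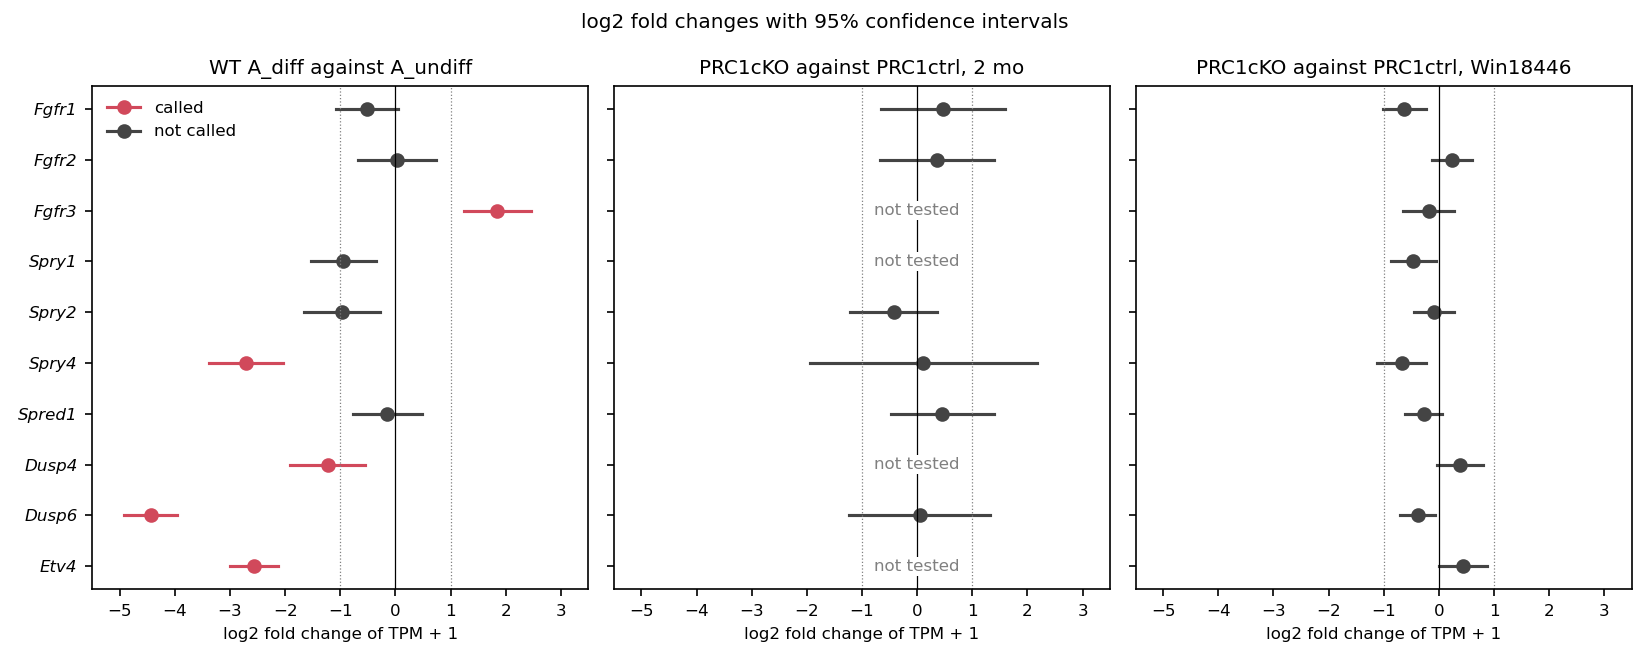
log2 fold changes of TPM + 1 (points) with 95% confidence intervals (lines) for the 10 genes in WT A_diff against A_undiff, PRC1cKO against PRC1ctrl at 2 mo and PRC1cKO against PRC1ctrl after Win18446, with dotted lines at the fold threshold and called genes in red. The 5 called genes are all in the WT comparison, and 4 genes could not be tested at 2 mo.

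The rest of the pathway was read from 7 lists of 108 genes, chosen by role and with earlier results of these data known. In the WT comparison 86 of them were tested, of which 12 (14.0%) were higher and 16 (18.6%) were lower. The shares over all genes tested were 11.1% and 9.24%. The median log2 fold change of the 86 was 0.01. Among the other ERK target transcription factors, 7 of 18 tested were lower and 1 was higher. *Etv5*, the closest relative of *Etv4* in the list, had 57.3 and 58.7 TPM in A_undiff and 2.62 and 2.77 TPM in A_diff (log2 fold change -4.0, limma adjusted p = 0.000221). The immediate early gene *Egr1* fell from 83.0 ± 7.22 to 4.13 ± 1.35 TPM (log2 fold change -4.06, limma adjusted p = 0.000482, SD, n = 2 each), and *Egr2* had a log2 fold change of -3.19. Of the other brakes, 3 of 14 tested were lower and 2 were higher. *Il17rd*, a membrane inhibitor of FGF signalling, had a log2 fold change of -2.06 and the phosphatase *Dusp5* one of -1.94, whereas *Dusp2*, another nuclear phosphatase, rose with a log2 fold change of 2.53. The direction was thus not shared by all the phosphatases.

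Upstream of ERK the lists differed in their counts of calls. None of the 10 adaptors between receptor and RAS was called, with 3 higher and 1 lower at an adjusted p under 0.05 alone, where 23.4% of all genes were higher and 14.7% were lower. Among the 17 genes of the RAS to ERK cascade 2 were higher and 1 was lower. *Mapk3*, which encodes ERK1, fell from 176 ± 6.07 to 56.5 ± 7.23 TPM (SD, n = 2 each, log2 fold change -1.62), while *Map2k2* (MEK2) and *Rps6ka1* (the ERK substrate RSK1) had log2 fold changes of 1.15 and 1.44. Of 9 receptors and co-receptors tested, the heparan sulphate proteoglycan *Sdc4* fell from 653 ± 45.4 to 50.8 ± 0.240 TPM (SD, n = 2 each, log2 fold change -3.66), and *Sdc1* and the receptor without kinase domain *Fgfrl1* had log2 fold changes of 1.83 and 1.02. *Fgfr4*, the receptor that is no member of the set, lay at 0.12 and 1.71 TPM in A_undiff and at 1.08 and 0.99 TPM in A_diff. Of 22 FGF genes 9 were tested. *Fgf8*, a secreted ligand, had a log2 fold change of -1.46, and *Fgf11* and *Fgf13*, which encode intracellular homologous factors rather than ligands, had log2 fold changes of 1.88 and 1.02. Among 9 other receptor tyrosine kinases and the GDNF receptor tested, 3 were lower and 3 were higher. *Ret* and its partner *Gfra1* had log2 fold changes of -4.05 and -3.87, and *Kit*, *Met* and *Erbb2* had 5.01, 2.43 and 1.10.

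**Figure D3:**
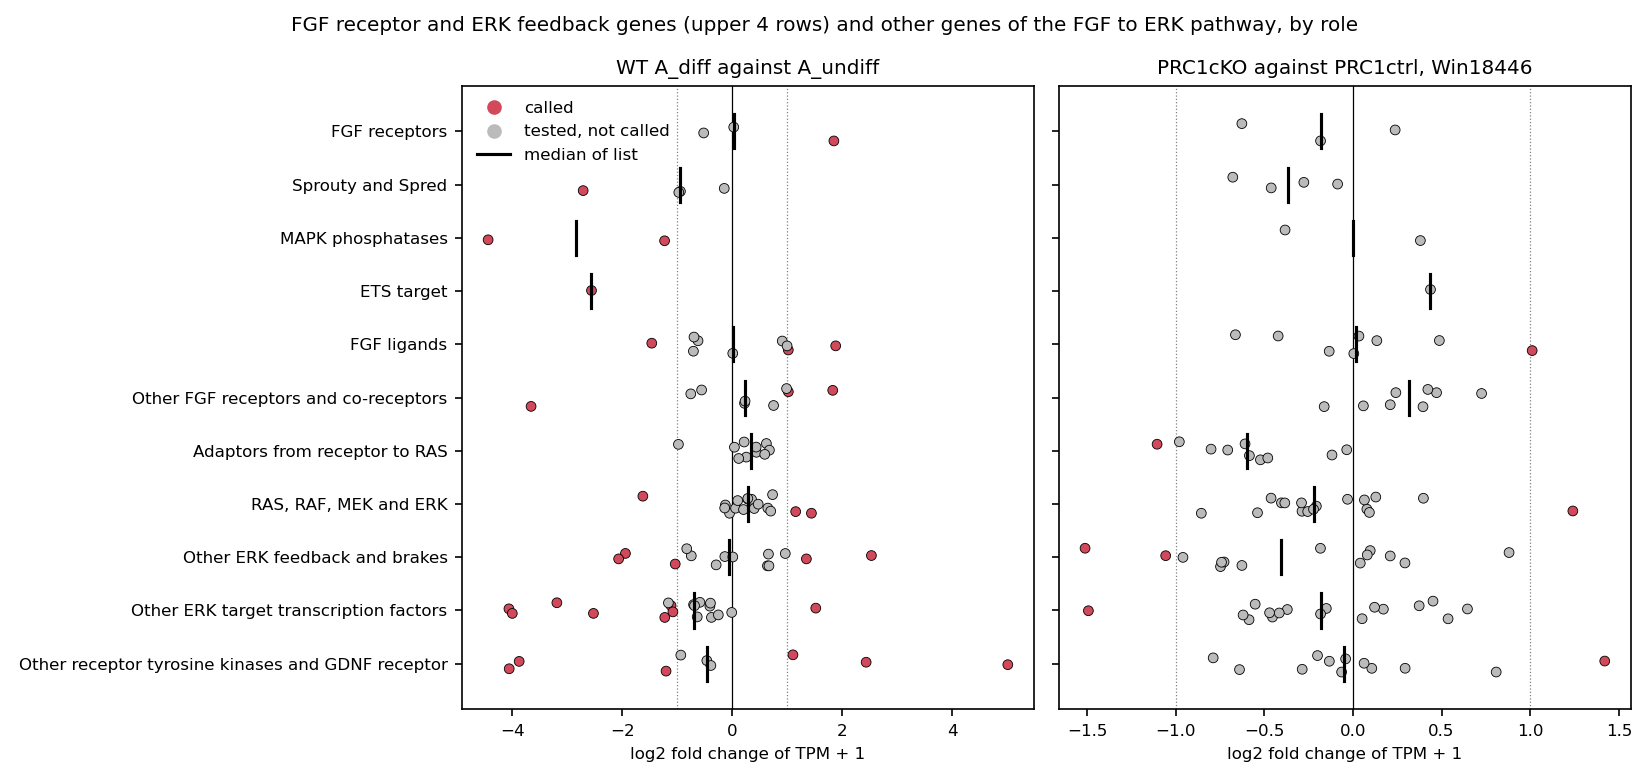
log2 fold changes of TPM + 1 for the member genes (upper 4 rows) and 7 further lists of the pathway, in WT A_diff against A_undiff (left) and PRC1cKO against PRC1ctrl after Win18446 (right, on a narrower axis), with called genes in red and a bar at each list's median. In WT the other ERK target transcription factors have a median of -0.69 and 7 red points on the lower side. After Win18446 the called genes of the lists number 3 higher and 4 lower. Of all genes tested, 11.1% were called higher and 9.24% lower in WT, and 1.27% and 10.9% after Win18446.

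At 2 mo, none of the 10 genes was called between the labels PRC1cKO and PRC1ctrl. Only 6 of the 10 could be tested (limma, 13953 genes), because *Fgfr3*, *Spry1*, *Dusp4* and *Etv4* had at least 1 TPM in fewer than 2 of the 4 low-input libraries. Over all genes tested 0.222% were higher and 1.94% were lower under the label PRC1cKO. At an unadjusted p under 0.05 there were none of the 6 either, where 14.2% of all genes tested passed. The other 4 were tested in the fit with no filter on low values, which called no gene at all (limma, 2683 of 32181 genes at an unadjusted p under 0.05) and so says nothing of them. The fit over all 12 libraries, whose spread is shared with the stranded libraries, also tested these 4 genes. At or under 1 TPM in every low-input library, they could not reach a log2 fold change beyond 1 on log2(TPM + 1), so no call was possible. Their limma adjusted p ran from 0.267 (*Fgfr3*) to 0.938 (*Spry1*). *Dusp6* had 13.8 and 26.1 TPM under PRC1ctrl and 14.0 and 27.3 TPM under PRC1cKO. The groups overlapped nearly fully, with replicate 2 the higher library of each, and the log2 fold change of 0.04 had a 95% confidence interval of -1.23 to 1.32 (limma adjusted p = 0.976). *Spry4* was as spread, at 2.27 and 7.35 TPM under PRC1ctrl and at 1.83 and 10.3 TPM under PRC1cKO, with a log2 fold change of 0.11 (95% confidence interval -1.95 to 2.17, limma adjusted p = 0.959).

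*Spry2* was the most abundant gene of the set at 2 mo, with 74.9 and 57.9 TPM under PRC1ctrl and 43.4 and 54.7 TPM under PRC1cKO. The PRC1ctrl libraries were the higher ones without overlap, but the log2 fold change of -0.43 did not pass (95% confidence interval -1.21 to 0.36, limma adjusted p = 0.603). *Spred1* had 10.03 and 8.75 TPM under PRC1ctrl and 13.3 and 13.2 TPM under PRC1cKO, a log2 fold change of 0.45 (adjusted p = 0.64, limma). *Fgfr1* had 0.65 and 1.55 TPM under PRC1ctrl and 1.19 and 2.65 TPM under PRC1cKO, and *Fgfr2* had 0.25 and 1.13 TPM against 0.71 and 1.54 TPM. Both receptors overlapped between the labels. The 4 genes that were not tested lay at 1.00 TPM or below in every low-input library. Under PRC1ctrl *Fgfr3* had 0.17 and 0.02 TPM, *Etv4* 0.04 and 0.15 TPM and *Dusp4* 0.19 and 0.09 TPM. Of the 68 other pathway genes tested none was called, where 0.222% of all genes tested were higher and 1.94% were lower. Spermatid markers (9 genes) summed to 773 to 1816 TPM under PRC1ctrl at 2 mo and to 59.1 to 65.2 TPM under PRC1cKO. Leydig cell markers went from 1.04 to 1.21 TPM to 21.0 to 48.0 TPM, markers of undifferentiated spermatogonia from 958 to 1229 TPM to 456 to 533 TPM and those of differentiating spermatogonia from 387 to 536 TPM to 793 to 1082 TPM. Of 12 undifferentiated markers tested 1 was called lower, and none of 10 differentiating markers was called. *Sall4* (means of 611 and 290 TPM) and *Nanos3* (318 and 86.5 TPM) held most of the undifferentiated sums. Not all of these markers moved the same way, with *Gfra1* at 11.1 and 16.2 TPM. The part of these cells in the member genes' values was not tested.

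After Win18446 all 10 genes were tested (limma, 16521 genes) and none was called, where 1.27% of all genes were higher and 10.9% were lower under the label PRC1cKO. At an adjusted p under 0.05 without the fold threshold, 2 of the 10 were lower, *Fgfr1* and *Spry4*, where 26.7% of all genes were lower and 5.87% were higher. The libraries did not overlap between the labels for 8 of the 10 genes and for 69.4% of all genes tested, and the median log2 fold change of the 10 was -0.23, against -0.19 over all genes tested. *Fgfr1* had 55.2 and 67.2 TPM under PRC1ctrl and 34.5 and 44.3 TPM under PRC1cKO. The PRC1ctrl libraries were both the higher ones, and the log2 fold change was -0.63 (SE 0.17, limma adjusted p = 0.0292). *Spry4* had 2.48 and 3.06 TPM under PRC1ctrl and 1.40 and 1.3 TPM under PRC1cKO, a log2 fold change of -0.68 (SE 0.18, limma adjusted p = 0.0312). Both values moved with the scaling. With median-of-ratios factors, which brought the median of all genes to 0.00, the log2 fold changes were -0.42 for *Fgfr1* (limma adjusted p = 0.0739) and -0.54 for *Spry4* (limma adjusted p = 0.0597). Leaving out replicate 2 of PRC1ctrl or replicate 1 of PRC1cKO raised the limma adjusted p of *Fgfr1* to 0.0704 and 0.157, and that of *Spry4* lay between 0.0382 and 0.16 with each library left out and was under 0.05 only without replicate 1 of PRC1ctrl.

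*Dusp6* had 16.6 and 16.8 TPM under PRC1ctrl and 12.3 and 12.8 TPM under PRC1cKO. Its libraries were close within each label and apart between them, yet the log2 fold change of -0.38 (SE 0.13, limma adjusted p = 0.0676) did not pass. *Dusp4* and *Etv4* leaned the other way. *Etv4* had 14.1 and 18.5 TPM under PRC1ctrl and 19.9 and 24.7 TPM under PRC1cKO, a log2 fold change of 0.43 (adjusted p = 0.113, limma). *Dusp4* had 1.26 and 1.39 TPM against 2.00 and 2.05 TPM, a log2 fold change of 0.38 (adjusted p = 0.137, limma). Neither gene was called, although neither overlapped between the labels.

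None of the remaining genes was called after Win18446. *Spry1*, whose libraries did not overlap, had 6.20 and 7.02 TPM under PRC1ctrl and 4.95 and 4.12 TPM under PRC1cKO (log2 fold change -0.46, limma adjusted p = 0.0824). *Spred1* had 12.5 and 13.2 TPM against 10.6 and 10.3 TPM (log2 fold change -0.28), and *Spry2* overlapped, with 10.5 and 9.23 TPM against 8.68 and 9.74 TPM (log2 fold change -0.09). Among the receptors *Fgfr2* had 5.82 and 5.47 TPM against 6.69 and 6.98 TPM (log2 fold change 0.24) and *Fgfr3* had 4.39 and 6.11 TPM against 4.60 and 4.31 TPM (log2 fold change -0.18). None of these 5 passed an adjusted p of 0.05 (limma). Leydig cell markers (6 genes) summed to 82.1 to 397 TPM under PRC1ctrl and to 20.6 to 73.2 TPM under PRC1cKO, and the 10 Sertoli cell markers to 178 to 261 and 180 to 249 TPM, with no marker of either called. Spermatid markers summed to 132 to 146 TPM under PRC1ctrl and to 24.3 to 26.1 TPM under PRC1cKO, with 5 of 7 tested called lower, and 3 of 9 spermatocyte markers were called lower. Of the 10 markers of differentiating spermatogonia 3 were called higher, and at an adjusted p under 0.05 alone 6 were higher and 1 was lower. Markers of undifferentiated spermatogonia summed to 878 to 969 TPM under PRC1ctrl and to 658 to 755 TPM under PRC1cKO. Of these 15 markers, all tested, 1 was called higher and 1 lower. The part of these cells in the member genes' values was not tested.

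Of the 86 other pathway genes tested after Win18446, 3 (3.49%) were higher and 4 (4.65%) were lower under the label PRC1cKO. The shares over all genes tested were 1.27% and 10.9%. *Kit*, the receptor that marks A_diff, had a log2 fold change of 1.42 (adjusted p = 0.00263, limma), *Mras*, a RAS relative, one of 1.24 and the ligand gene *Fgf3*, from 0.135 ± 0.148 to 1.3 ± 0.403 TPM, one of 1.01. *Nf1*, which encodes a brake on RAS, had 53.5 ± 4.04 TPM under PRC1ctrl and 18.4 ± 4.84 TPM under PRC1cKO (SD, n = 2 each). *Elk4*, an ETS factor, had a log2 fold change of -1.49, *Plcg1* one of -1.10 and *Il17rd* one of -1.06. In WT A_undiff the means were 18.8 TPM for *Nf1*, 16.5 TPM for *Elk4* and 24.2 TPM for *Plcg1*. *Elk4* and *Plcg1* had 51.4 and 67.1 TPM under PRC1ctrl, and 17.7 and 30.75 TPM under PRC1cKO. For these genes PRC1cKO was thus nearer to WT A_undiff. *Il17rd* had 14.5 TPM in WT A_undiff, 11.6 TPM under PRC1ctrl and 5.045 TPM under PRC1cKO. *Etv5* was not called, with 16.0 and 15.3 TPM under PRC1ctrl and 12.6 and 14.9 TPM under PRC1cKO.

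The difference between the labels was then compared between the arms. The interaction of label and treatment, fitted with limma over the 8 libraries of PRC1 mice (18354 genes, of which 7.74% were called), called none of the 10. *Fgfr1* came nearest, with label differences of 0.46 at 2 mo and -0.63 after Win18446 and an interaction of -1.09 (SE 0.50, limma adjusted p = 0.237). The 95% confidence intervals of the interaction were wide for *Spry4* (-3.09 to 1.51) and *Dusp6* (-1.77 to 0.92), and differences between the arms of that size were not detectable for these genes. *Fgfr3*, *Spry1*, *Dusp4* and *Etv4* were not tested at 2 mo and entered this fit through their levels after Win18446. Near the floor of log2(TPM + 1) their label difference at 2 mo was compressed, so the fit says little of their interaction.

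A further fit asked whether the label difference after Win18446 had the size of the WT difference between A_diff and A_undiff, over the 8 libraries of the stranded kit, which share none between the contrasts (limma, 17794 genes, of which 27% were called). It called 5 of the 10 genes, the same 5 that were called between the WT populations. No member's label difference was called (log2 fold changes of -0.68 to 0.43). The gaps thus carry mostly the WT difference with its sign turned, and the match is no separate result. Under PRC1ctrl after Win18446 *Dusp6*, *Spry4* and *Dusp4* had means of 16.7, 2.77 and 1.325 TPM. Even complete loss from there is a smaller change on log2(TPM + 1) than their WT difference. Part of their gap was thus fixed by the starting level. For *Dusp6* the differences were -0.38 between labels and -4.44 between WT populations, 4.05 apart (SE 0.21, limma adjusted p = 0.000125). For *Etv4* they were 0.43 and -2.57, 3.00 apart (SE 0.27, limma adjusted p = 0.000664). For *Spry4* both contrasts were lower, by log2 fold changes of -0.68 and -2.71, and the gap was 2.03 (limma adjusted p = 0.0025). For *Dusp4*, 0.38 against -1.23 gave a gap of 1.61 (limma adjusted p = 0.00594), and for *Fgfr3*, -0.18 against 1.85 gave a gap of -2.03 (limma adjusted p = 0.00311). *Kit*, which was higher in both contrasts, had a gap of -3.59 and *Etv5* one of 3.81.

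Levels were also set side by side across the 3 sets of libraries, where strain, *Ring1* genotype, treatment and, at 2 mo, the library kit differ together and cannot be told apart, so no test was made. By group mean, *Dusp6*, *Etv4*, *Dusp4*, *Spry4* and *Spry1* were highest in WT A_undiff, *Fgfr3* in WT A_diff, *Fgfr1* in PRC1ctrl after Win18446 and *Fgfr2* in PRC1cKO after Win18446. In WT A_undiff *Spry4* overlapped the next group, PRC1cKO at 2 mo (1.83 and 10.3 TPM), and *Spry1* overlapped PRC1ctrl after Win18446. For *Etv4* the order ran from WT A_undiff (55.8 TPM) to PRC1cKO after Win18446 (22.3), PRC1ctrl after Win18446 (16.3), WT A_diff (8.65), PRC1cKO at 2 mo (0.59) and PRC1ctrl at 2 mo (0.095), and no neighbours in this order overlapped. For *Dusp6*, WT A_undiff (59.1 TPM) was followed by PRC1cKO and PRC1ctrl at 2 mo (20.7 and 19.9) and PRC1ctrl after Win18446 (16.7), which overlapped in turn, then by PRC1cKO after Win18446 (12.6) and WT A_diff (1.79). *Spred1* was the steadiest of the set, with group means of 9.39 to 13.2 TPM in all 6 groups.

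Within the stranded kit, A_undiff of PRC1ctrl mice after Win18446 had lower levels of *Dusp6*, *Etv4*, *Dusp4* and *Spry4* than WT A_undiff and higher levels of *Fgfr1* and *Fgfr2*. The difference in mean log2(TPM + 1) was -1.76 for *Dusp6*, -1.72 for *Etv4*, -1.38 for *Dusp4* and -1.31 for *Spry4*. It was 0.88 for *Fgfr1* and 0.96 for *Fgfr2*, and lay between -0.21 and 0.53 for the other 4. The libraries of the groups did not overlap for 9 of the 10 genes, all but *Spry1*. The same held for 73.5% of 10988 genes with a mean of at least 5 TPM over the 12 libraries. *Fgfr2*, *Fgfr3*, *Spry1*, *Spry4* and *Dusp4* have lower means and are not among these 10988. Over these 10988 genes the median of the difference was 0.23, and its Spearman correlation with the length of the longest transcript was 0.371. That transcript has 5041 bases for *Fgfr1* and 4429 for *Fgfr2*, against 2796 for *Dusp6*, 2395 for *Etv4* and 2740 for *Dusp4*. *Spry4*, also lower, has 4755 bases. The part of transcript length in these differences was not tested. The Sertoli cell markers summed to 105 to 113 TPM in WT A_undiff and 178 to 261 TPM in the PRC1ctrl libraries after Win18446. Among them *Gata4* had 11.3 and 11.4 TPM in the latter, above its WT level, while *Wt1* overlapped (9.37 and 10.9 against 11.6 and 9.98 TPM). Spermatid markers went from 825 to 900.1 TPM in WT A_undiff to 132 to 146 TPM, and Leydig cell markers from 21.0 to 41.5 TPM to 82.1 to 397 TPM. The part of these cells in the members' levels was not tested.

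Several of the genes had another level in the low-input libraries than in the other sets. In PRC1ctrl A_undiff, *Fgfr1* lay at 0.65 and 1.55 TPM at 2 mo and at 55.2 and 67.2 TPM after Win18446, a difference of -4.92 in mean log2(TPM + 1). *Etv4* differed by -3.97, *Fgfr3* by -2.50, *Spry1* by -2.30 and *Fgfr2* by -2.03, whereas *Spry2* was higher by 2.63 and *Dusp6* and *Spry4* differed by 0.18 and 0.48. The members under 3 TPM in every low-input library were the 5 with the highest GC content in their longest transcript, at 55.4% to 58.7% (*Fgfr1*, *Dusp4*, *Fgfr3*, *Spry1* and *Etv4*), and *Fgfr2*, at 50.2%. *Spred1* and *Spry2* had 41.2% and 46.2% GC. A like relation was seen over the whole table. Across 10988 genes, which are not independent replicates, the difference between the 2 mo and Win18446 libraries of PRC1ctrl mice had a Spearman correlation of -0.518 with GC content, and that between the Win18446 and WT libraries, both made with the stranded kit, one of -0.138. With the length of the longest transcript these correlations were -0.312 and 0.371. Between 2 mo and Win18446, genes with 55% to 60% GC had a median difference of -3.16. Genes with 40% to 45% GC had one of -0.18. *Spry2* and *Dusp6* exceeded the median of their GC class (45% to 50% GC, -1.07), and *Fgfr1* (-4.92) lay below that of its own (55% to 60% GC, -3.16). *Fgfr3*, *Spry1*, *Spry4* and *Dusp4* had means of 5.25, 6.61, 2.77 and 1.325 TPM under PRC1ctrl after Win18446. From there log2(TPM + 1) cannot fall as far as the medians of their classes, so they were not set against them. The level of a member in the 2 mo libraries is therefore given beside its GC content, and the part of the kit in it was not tested.

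**Figure D4:**
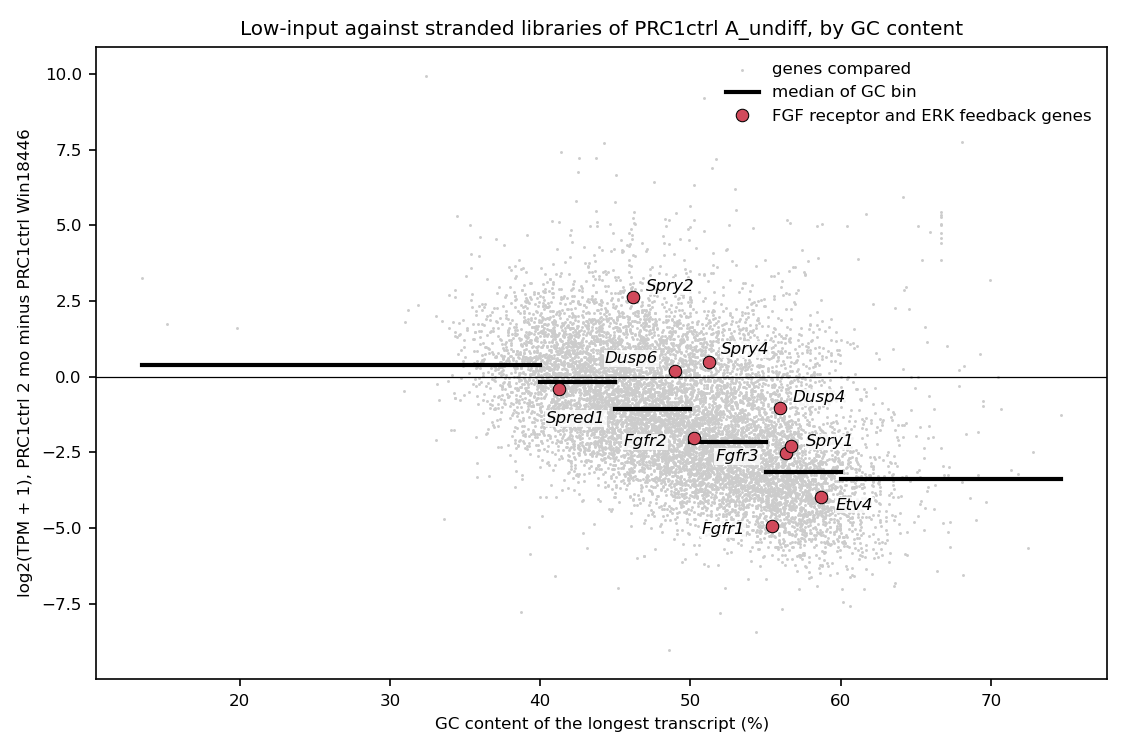
Difference in mean log2(TPM + 1) between PRC1ctrl A_undiff at 2 mo (low-input libraries) and after Win18446 (stranded libraries) against the GC content of the longest transcript, for 10988 genes (grey), the medians of 6 GC classes (bars) and the 10 member genes (red). The medians fall from 0.40 in the lowest class to -3.39 in the highest. *Spry2* lies above its class at 2.63 and *Fgfr1* is lowest of the set at -4.92. *Fgfr3*, *Spry1*, *Spry4* and *Dusp4* start too low after Win18446 to reach the median of their class.

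Likeness across libraries was described by Pearson's correlation of log2(TPM + 1), with no test, since libraries of 1 set share kit and strain. Over all 12 libraries and among 10992 genes with a mean of at least 5 TPM, the 2 genes most like a member included *Dpp9* and *Bag3* for *Fgfr1* (0.998 each), *Dact2* and *Gm4332* for *Etv4* (0.989 and 0.988) and *Ggps1* and *Tax1bp1* for *Spry2* (0.989 and 0.985). The members less closely matched were *Spry4*, with *Igf2bp3* and *Dusp6* (0.914 and 0.896), and *Spred1*, with *Lin9* and *Ints12* (0.885 and 0.800). Over the 8 libraries of the stranded kit, chosen after these values were seen, *Dusp6* was most like *Etv5* (0.996) and *Psmb10* (0.994), *Spry4* like *Chn2* (0.990) and *Egr2* (0.986), and *Etv4* like *Pkm* (0.993) and *Ppfibp2* (0.989). *Fgfr2* was most like *Dab2* (0.977) and *Gata4* (0.976) there. Within the set and over these 8 libraries, *Dusp6* correlated with *Spry4* at 0.954, with *Etv4* at 0.940 and with *Fgfr3* at -0.910, and *Spred1* with none above 0.463 in size.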

How the data were processed

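RNA-seq was analysed for 12 libraries of sorted mouse spermatogonia in 6 groups of 2. The authors deposited TPM, made with RSEM 1.3.3 per their methods and processing notes, with reads trimmed by Trim Galore 0.6.6, aligned with HISAT2 2.2.1 to GRCm38 and handled with SAMtools 1.9, and read counts by HTSeq 1.6.0 went into their own tests with DESeq2 1.28.1. Counts were not used here, and library depth and the strand setting of RSEM are not given in the sources used here. Because TPM sums to a constant, genes that rise lower the rest. No further scaling was applied. log2(TPM + 1) was fitted on genes with at least 1 TPM in at least 2 of the libraries compared, by the two-sided test of limma 3.58.1 (R 4.3.3), whose moderation used the trend and robust options, and p-values were adjusted over all genes tested (Benjamini-Hochberg). A call required an adjusted p below 0.05 with a log2 fold change beyond 1 in either direction. The fit was tested on simulated data.

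The genes named are the 10 members, up to 3 called genes with the largest change from each of 7 pathway lists in each comparison, *Etv5* and *Fgfr4*, the 2 genes most like each member, *Kit* and *Gfra1*, *Rnf2* and *Ring1*, and cell type markers as lists. Single marker genes (*Trf*, *Rhox5*, *Wt1*, *Clu*, *Sox9*, *Amh*, *Dhh*, *Fshr*, *Gata4*, *Sall4* and *Nanos3*) and the genes most like members over 8 libraries were named after their values were seen. The members and lists were chosen with earlier results of these data known. *Spry3* was not analysed here. Alternatives were another pseudocount and other filters, other scalings, a replicate block, other moderation, a fit over 12 libraries, each library left out, and a GC correction (lowess) that was chosen after seeing the data. Python 3.11.15 with numpy 2.4.6, pandas 2.3.3 and matplotlib 3.10.9 made the tables and figures. Each library is a separate pool of sorted cells, which the study describes as an independent replicate, and p-values measure the spread between these pools.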

Additional observations from a re-analysis of the deposited data

Results flagged for a closer look

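For 5 genes of the set, the difference between the labels PRC1cKO and PRC1ctrl after Win18446 was unlike the WT difference between A_diff and A_undiff by a limma test of the gap itself over 8 libraries. The gaps on the log2 scale were 4.05 for *Dusp6* (95% confidence interval 3.56 to 4.55), 3.00 for *Etv4* (2.38 to 3.62), 2.03 for *Spry4* (1.32 to 2.74), 1.61 for *Dusp4* (0.90 to 2.32) and -2.03 for *Fgfr3* (-2.78 to -1.28). Over all genes tested 27% had a gap that was called. No member's label difference was called, so these gaps carry mostly the WT difference and are no separate result. WT A_undiff and PRC1ctrl A_undiff after Win18446 were not at the same starting level, since *Dusp6* stood at 59.1 and 16.7 TPM and *Etv4* at 55.8 and 16.3 TPM. For *Dusp6*, *Spry4* and *Dusp4*, complete loss from the PRC1ctrl level would still be smaller on log2(TPM + 1) than the WT difference. Part of their gap was thus fixed by the starting level. Strain, *Ring1* genotype and treatment cannot be told apart in these gaps.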

How the results depend on the processing

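In WT, the calls of *Fgfr3*, *Dusp6* and *Etv4* held in every alternative run and with each library left out, and *Spry4* and *Dusp4* had too low a mean to be tested at a mean of 5 TPM, where 2 members were lower in WT and 2 had a higher gap between the label and WT differences. *Spry1* and *Spry2* passed the fold threshold, giving 6 lower members, with a pseudocount of 0.1, median-of-ratios scaling, rescaling without mitochondrial and the 50 highest genes, and GC correction. No alternative called a member between the labels at 2 mo or after Win18446, but *Fgfr3*, *Spry1*, *Dusp4* and *Etv4* lay too near the floor at 2 mo for a call. With 2 libraries per group and no read counts, the precision of each value rests on limma's pooled spread. Where a lone library was left in a group, it was taken to vary like the others. The fit over 12 libraries was not run for the interaction or the gap.

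Counts over all genes moved as follows, given as higher and lower calls, where the cause was not tested. At 2 mo (31 and 270 as reported) they were 100 and 887 with GC correction, 588 and 1036 over 12 libraries, 6 and 90 at a mean of 5 TPM, 78 and 772 with median-of-ratios scaling and 0 and 0 with no filter (limma, 2683 genes at an unadjusted p under 0.05), and the lower calls were 406 with the pseudocount of 0.1 and 430 when rescaled. In WT (1724 and 1430) the lower calls were 869 at a mean of 5 TPM. After Win18446 (210 and 1807) the calls were 360 and 1062 with GC correction and 104 and 851 at a mean of 5 TPM, and the higher calls were 335 with median-of-ratios scaling and 381 with the pseudocount of 0.1. For the interaction (506 and 914) they were 786 and 407 with GC correction, 90 and 86 at a mean of 5 TPM, 839 and 304 with median-of-ratios scaling, 334 and 453 with no filter and 226 and 243 with the pseudocount. For the gap (1238 and 3559) they were 2108 and 1907 with GC correction and 2052 and 2036 with median-of-ratios scaling, and 2263 lower at a mean of 5 TPM. Lower calls made up 45.3% of calls in WT and 60.1% with median-of-ratios scaling, 89.6% and 79.6% after Win18446, 64.4% and 26.6% in the interaction and 74.2% and 49.8% in the gap.

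Replicate numbers are shared by the groups, but with 2 pairs each they were not taken to pair the libraries (correlations of same-numbered deviations 0.158, 0.381 and 0.122). With the replicate block, 1074 genes were higher and 1098 lower at 2 mo, and the interaction had 2249 lower calls and 1 member called lower, *Fgfr1* (-1.09, limma adjusted p = 0.0383). The block changed no other member's call.

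Members that were not called changed sign as follows. *Fgfr2* in WT was at -0.020 with GC correction, -0.10 with median-of-ratios scaling and -0.059 when rescaled. At 2 mo *Spry4* was at -0.15 and -0.12 and *Dusp6* at -0.14 and -0.22 with these corrections, and *Dusp6* at -0.051 when rescaled. After Win18446 *Spry2* was at 0.17 and 0.10, and *Spred1* at 0.091 with GC correction. In the interaction *Fgfr2* was at 0.28 and 0.18, *Etv4* at 0.31 and 0.16, *Dusp6* at 0.19 with median-of-ratios scaling and *Dusp4* at -0.38 with the pseudocount. In the gap *Fgfr1* was at 0.16, 0.30 and 0.067 and *Spred1* at 0.42, 0.25 and 0.032 with GC correction, median-of-ratios scaling and rescaling.

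Leaving out each library in turn gave 2 to 5 lower members in WT, 816 to 1545 lower genes in WT, 1 to 124 higher and 44 to 149 lower at 2 mo, 139 to 290 higher and 899 to 1981 lower after Win18446, and 15 to 322 higher and 6 to 1214 lower in the interaction. The log2 values of members that changed sign ranged from -0.22 to 0.27 (*Fgfr2*) and -0.45 to 0.16 (*Spred1*) in WT, from -0.031 to 0.64 (*Fgfr2*), -0.88 to 1.11 (*Spry4*) and -0.41 to 0.50 (*Dusp6*) at 2 mo, and from -0.38 to 0.017 (*Fgfr3*) after Win18446. In the interaction they ranged from -0.50 to 0.27 (*Fgfr2*), -0.32 to 0.40 (*Dusp4*), -0.88 to 0.032 (*Dusp6*), -0.40 to 0.26 (*Etv4*) and -1.79 to 0.21 (*Spry4*), and in the gap from -0.41 to 0.19 (*Fgfr1*), -0.44 to 0.17 (*Spred1*) and -0.032 to 0.45 (*Fgfr2*).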
